A study of Mus musculus with 24 samples.

Results

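The 10 genes described here make, receive or remove inositol trisphosphate (IP3), the soluble calcium-releasing messenger of phospholipase C signalling. They were chosen by name, with earlier results of these data known. The phospholipase C genes are Plcb1, Plcb4, Plcg1 and Plce1. The IP3 receptor genes are Itpr1, Itpr2 and Itpr3, and the IP3 3-kinase genes are Itpka, Itpkb and Itpkc. All 10 were found among the 53379 genes of the count table, and all 10 were among the 37598 genes that passed the filter on low counts.

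The mRNAseq libraries came from right hippocampi of male C57/BL6N mice, which arrived at 8 weeks of age and were kept for 4 weeks before surgery. Kainic acid (KA; 70 nl of a 20 mM solution), an agonist of kainate-type glutamate receptors that provokes seizures, or saline (SH) was injected into the cortex next to the hippocampus, all mice received buprenorphine, KA mice without convulsive seizures had been excluded, and tissue was taken 24 hours later. Hippocampi of 8 mice per treatment were combined into 3 pools of 4 or 2 mice. Nuclei of each pool were sorted by the neuronal nuclear protein NeuN into NeuN+ nuclei (neurons) and NeuN- nuclei (glia), which gave 3 libraries in each of the groups SH neurons, KA neurons, SH glia and KA glia. The mice were wild type, so that no group carried a transgene, and the RNA was nuclear.

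Phospholipases C cut a phosphoinositide of the plasma membrane into IP3 and diacylglycerol. IP3 opens IP3 receptors, calcium channels of the endoplasmic reticulum, while diacylglycerol activates protein kinases C. IP3 3-kinases add a phosphate to IP3, which ends its action on the receptors and yields inositol tetrakisphosphate. In the hippocampus, Gq-coupled glutamate and acetylcholine receptors feed this pathway in neurons, and in astrocytes it drives calcium release from internal stores.

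The libraries held 7769400 to 40364768 counts (median 21380824.5). The 15 neuronal markers summed to between 23800 and 39600 CPM (counts relative to the scaled total of a library) in the 6 NeuN+ libraries and to between 1200 and 6350 CPM in the 6 NeuN- libraries, so that NeuN- nuclei were not free of neuronal RNA. The 8 oligodendrocyte markers summed to between 145 and 1280 CPM in NeuN+ libraries, to between 14300 and 29800 CPM in SH glia and to between 7490 and 14000 CPM in KA glia. Astrocyte markers summed to between 2020 and 2940 CPM in SH glia and to between 1260 and 2400 CPM in KA glia, microglial markers to between 1160 and 2690 CPM and to between 864 and 1810 CPM. The 5 markers of oligodendrocyte precursors summed to between 941 and 1640 CPM in SH glia and to between 398 and 650 CPM in KA glia. The sums of both oligodendrocyte lists were lower in KA glia without overlap with SH glia, and the part of this in the glial results below was not tested. The 4 libraries of replicate 3 had the lowest scaling factors of their groups and the fewest detected genes. SH glia replicate 1 and KA glia replicate 2 had been amplified from about 0.05 ng of RNA in place of 1 ng. In these bulk libraries, fewer nuclei of a type and less RNA per nucleus cannot be told apart. Levels below are CPM after TMM scaling, logFC is the log2 ratio of KA to SH, and a gene was called at a false discovery rate (FDR) below 0.25. Across genes, deviations from group means correlated between KA and SH libraries of the same replicate number. Values from a fit that takes this number as block are given beside the others where they change a call.

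In SH hippocampus, 3 of the 10 were higher in neurons at an FDR below 0.05 (Itpka, Itpr1, Plcb1) and 3 were higher in glia (Itpr2, Plce1, Plcb4). Of all genes tested, 6.05% were higher in neurons and 4.67% were higher in glia at this threshold. With the pool as a block, Plcg1 was called too, at an FDR of 0.00328, which made 7 of 10 where 21.7% of all genes were called in either direction. Each family thus held a member of either kind apart from the IP3 3-kinases, of which none was called higher in glia.

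**Figure D1:**
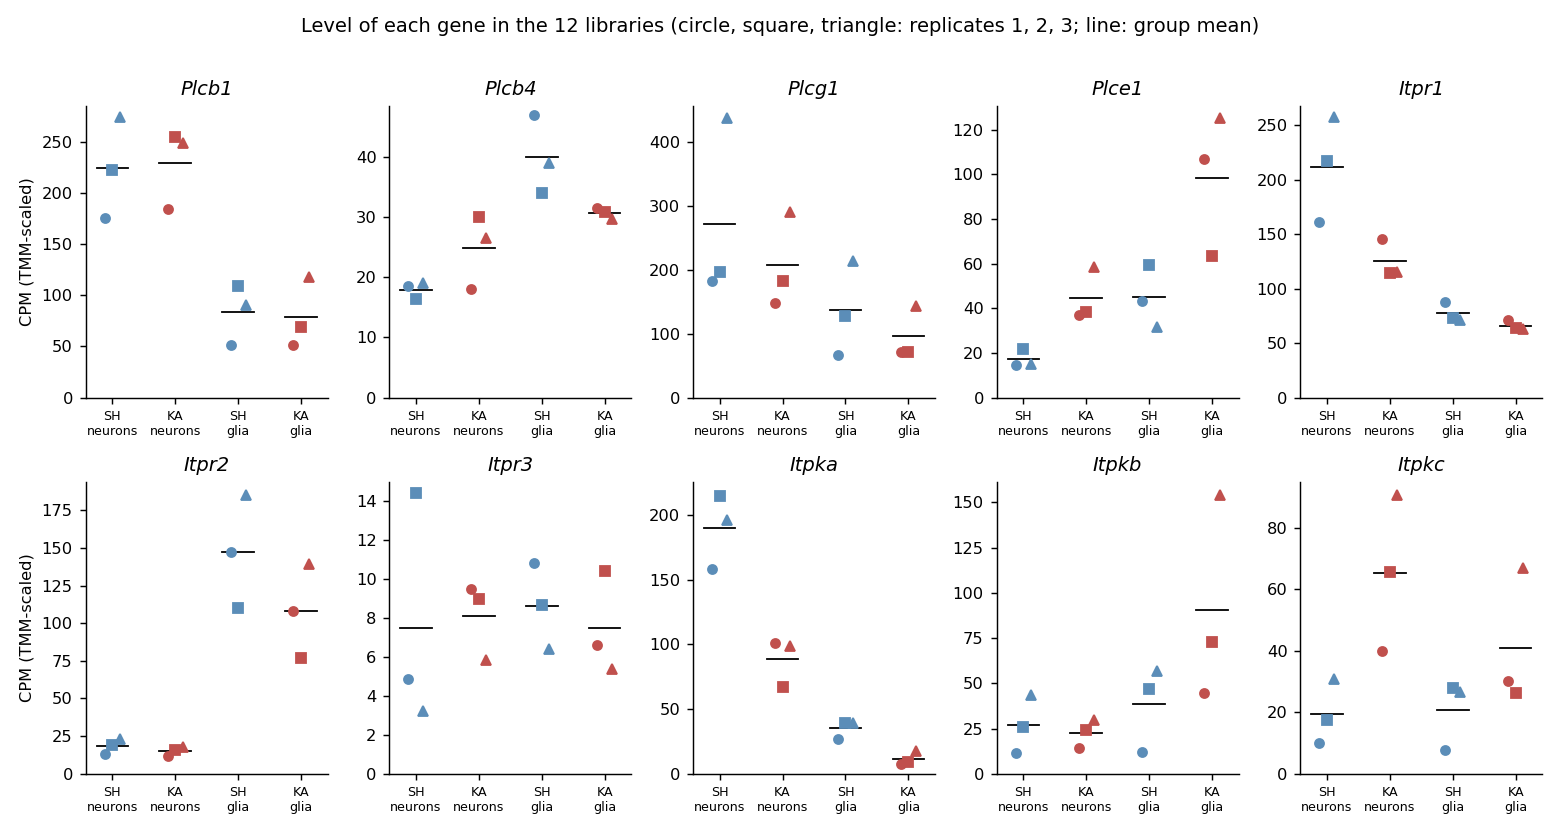
Level of each gene in CPM, with 1 point per library and a line at the group mean; blue points are SH, red points KA, and the axes start at 0 with a scale of their own per gene. Itpka was lower and Plce1 higher in each KA library than in each SH library of the same fraction, and Itpr2 was at least 76.9 CPM in every glial library and at most 23.3 CPM in every neuronal library.

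Plcg1 and Plcb1 made up most of the summed level of the 4 phospholipase C members. Plcg1 acts downstream of receptor tyrosine kinases and Plcb1 downstream of Gq. Per kilobase of exon, Plcg1 held 57.9% ± 7.85 (SD, n = 3) of the summed level of the 4 genes in SH neurons and Plcb1 held 36.3% ± 6.13. In SH glia, Plcg1 held 51.4% ± 12.6, Plcb1 23.5% ± 5.06, Plcb4 15.5% ± 8.1 and Plce1 9.54% ± 4.24. The other phospholipases C are left out of these shares. Among them, Plcd1 was at a mean of 9.51 CPM per kilobase in SH glia, where Plcb1 was at 7.53. In SH neurons, Plcd1 was at 7.37 and Plcb1 at 20.2.

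Plcb1 (chr2:134786067-135475258, plus strand; all positions are those of GENCODE M21 on GRCm38, and all 10 genes are protein-coding) was measured at 176, 223 and 274 CPM in SH neurons and at 184, 255 and 249 CPM in KA neurons. In glia it was at 50.9, 109 and 90.9 CPM in SH libraries and at 51.1, 68.6 and 118 CPM in KA libraries. The KA and SH libraries overlapped in both fractions, and logFC was 0.03 ± 0.40 (SE) in neurons and -0.08 ± 0.40 in glia. The gene separated the fractions instead, with a log2 ratio of neurons to glia of 1.42 ± 0.41 in SH (FDR = 0.0309). This call was kept in 2 of the 6 fits that left out 1 SH library and was lost without SH neurons replicate 2, SH neurons replicate 3, SH glia replicate 1 or SH glia replicate 3, where the FDR reached 0.290 at most.

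Plcb4 (chr2:135659011-136014593, plus strand), another Gq-activated enzyme, was at 18.5, 16.4 and 19.0 CPM in SH neurons and at 18.0, 30.1 and 26.5 CPM in KA neurons. In glia it was at 47.0, 34.1 and 39.1 CPM in SH and at 31.5, 30.9 and 29.7 CPM in KA, so that every KA glial library lay below every SH glial library while in neurons the groups overlapped. Neither difference was called, with a logFC of 0.47 ± 0.29 in neurons (FDR = 1) and of -0.38 ± 0.29 in glia (FDR = 1.00). Between SH fractions, Plcb4 was lower in neurons by a log2 ratio of -1.16 ± 0.30 (FDR = 0.0160), a call lost without SH neurons replicate 2 (FDR = 0.0617), SH neurons replicate 3 (FDR = 0.0552) or the 4 libraries of replicate 3 (FDR = 0.0685).

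Plcg1 (chr2:160731300-160775760, plus strand) was at 182, 196 and 438 CPM in SH neurons, 148, 183 and 290 CPM in KA neurons, 67.1, 128 and 214 CPM in SH glia and 71.8, 72 and 143 CPM in KA glia. Replicate 3 was the highest library of each of the 4 groups, and the groups overlapped. The logFC was -0.39 ± 0.49 in neurons and -0.51 ± 0.49 in glia, neither of them called. Of its exon bases, 6.68% overlap those of Zhx3 or Gm27206 on the opposite strand, where default counting assigns no read.

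Plce1 (chr19:38481109-38785030, plus strand) encodes the phospholipase C that binds Ras-family GTPases. Of the 4 phospholipase C members, it differed most between KA and SH. It was measured at 14.5, 21.9 and 14.9 CPM in SH neurons and at 36.9, 38.5 and 58.3 CPM in KA neurons. In glia it was at 43.2, 59.5 and 31.7 CPM in SH and at 107, 63.4 and 125 CPM in KA. All KA libraries lay above all SH libraries of their fraction, and the KA neurons reached the range of SH glia. The logFC was 1.38 ± 0.36 in neurons (FDR = 0.352) and 1.14 ± 0.36 in glia (FDR = 0.450), so that Plce1 was not called with 4 group means. With the replicate block, it was called in neurons (logFC 1.37 ± 0.32, FDR = 0.0366) and in glia (logFC 1.14 ± 0.32, FDR = 0.0726), and neither call was made without the libraries of replicate 3 (FDR = 0.862 and 0.643). The smallest of the 6 pairwise ratios of KA to SH was 1.07, in glia replicate 2, whose KA library was 1 of the low-input libraries. Between SH fractions, Plce1 was lower in neurons by a log2 ratio of -1.39 ± 0.36 (FDR = 0.0193), a call lost without SH neurons replicate 1 (FDR = 0.0921), SH neurons replicate 3 (FDR = 0.0983) or SH glia replicate 2 (FDR = 0.0994). The mean share of Plce1 in the summed level of these 4 members was 2.04% ± 0.867 in SH neurons and 5.32% ± 0.617 in KA neurons. In glia it was 9.54% ± 4.24 in SH and 21.7% ± 5.59 in KA.

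The IP3 receptors showed the sharpest division between the fractions. Per kilobase, Itpr1 made up 84.8% ± 3.99 (SD, n = 3) of the 3 receptor genes in SH neurons and 28.3% ± 4.99 in SH glia, while Itpr2 made up 9.04% ± 0.713 in SH neurons and 65.2% ± 7 in SH glia. Itpr3 stayed at a mean of 6.12% ± 4.37 and 6.47% ± 2.02.

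Itpr1 (chr6:108213096-108551109, plus strand), the main IP3 receptor of central neurons, was at 161, 217 and 258 CPM in SH neurons and at 146, 114 and 115 CPM in KA neurons. The highest KA library lay below the lowest SH library. The logFC was -0.76 ± 0.32 with an FDR of 1, and with the replicate block it was -0.75 ± 0.24 and called (FDR = 0.212), a call lost without the pair of replicate 3 (FDR = 1) and also without the pair of replicate 2 (FDR = 0.368). In glia, Itpr1 was at 88.1, 72.7 and 71.1 CPM in SH and at 71.1, 63.7 and 62.7 CPM in KA, with a logFC of -0.23 ± 0.32 that was not called in either fit. Its log2 ratio of neurons to glia in SH was 1.46 ± 0.32 (FDR = 0.00646) and was called in each of the 6 fits without 1 SH library, but not without both low-input libraries (FDR = 0.145).

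Itpr2 (chr6:146108299-146502223, minus strand), the receptor known from astrocytes and other glia, was at 147, 110 and 185 CPM in SH glia and at 108, 76.9 and 139 CPM in KA glia. In neurons it was at 12.8, 19.2 and 23.3 CPM in SH and at 11.8, 16 and 17.7 CPM in KA. The KA library was lower than the SH library of the same number in all 6 pairs, with ratios of 0.698 to 0.923, but the groups overlapped and neither logFC was called (-0.28 ± 0.35 in neurons and -0.45 ± 0.35 in glia). With a log2 ratio of -2.998 ± 0.377 (FDR = 0.000137), Itpr2 differed more between SH neurons and SH glia than any other of the 10 genes.

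Itpr3 (chr17:27057304-27122223, plus strand), the form known from epithelia and secretory cells, was the rarest member, at 3.22 to 14.4 CPM over the 12 libraries. Its logFC was 0.11 ± 0.51 in neurons and -0.20 ± 0.51 in glia, and SH neurons replicate 2, at 14.4 CPM, lay well above the other SH neurons at 4.84 and 3.22 CPM.

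Mean shares moved furthest between SH and KA among the IP3 3-kinases. Per kilobase, Itpka made up 94.5% ± 2.68 of the 3 kinase genes in SH neurons and 76.9% ± 8.04 in KA neurons, and 73.8% ± 9.92 in SH glia and 28.3% ± 1.75 in KA glia. Itpkc made up 3.25% ± 1.5 and 19.6% ± 6.84 in SH and KA neurons, and 13.6% ± 4.70 and 34.7% ± 5.76 in SH and KA glia. Itpkb made up 2.25% ± 1.18 and 3.46% ± 1.22 in SH and KA neurons, and 12.6% ± 5.39 and 37.1% ± 5.88 in SH and KA glia. For Itpka and Itpkc, the shares of the KA and SH libraries did not overlap in either fraction, and for Itpkb they did not overlap in glia. These shares are descriptions of the libraries and were not tested.

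**Figure D2:**
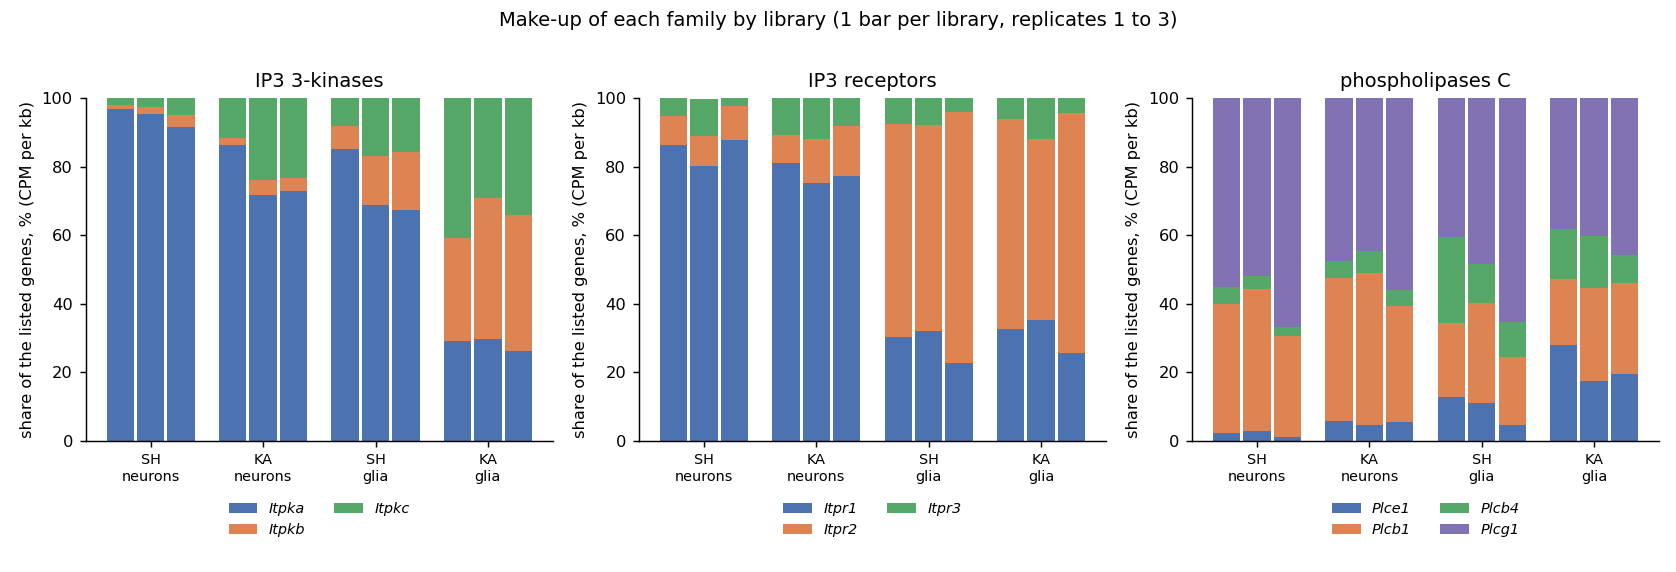
Share of each gene in the summed level of the listed genes of its family, in percent of CPM per kilobase. Each bar is 1 library, in the order of replicates 1 to 3 within each group. Itpka fills at least 91.5% of each SH neuron bar and at most 29.6% of each KA glia bar, and the change from Itpr1 to Itpr2 follows the sorted fraction.

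Sequences just upstream of Itpka and Itpkc are shown because these kinases had the lowest and the highest logFC of the 10 genes in neurons. They stop before the first annotated exon and come from RefSeq promoter windows (GRCm38.p6), with each CpG in capitals. The Itpka stretch is chr2:119742087-119742336 on the plus strand, with 26 CpGs in 250 bases, and the Itpkc stretch is chr7:27228662-27228867 on the minus strand, with 14 CpGs in 206 bases.
Itpka: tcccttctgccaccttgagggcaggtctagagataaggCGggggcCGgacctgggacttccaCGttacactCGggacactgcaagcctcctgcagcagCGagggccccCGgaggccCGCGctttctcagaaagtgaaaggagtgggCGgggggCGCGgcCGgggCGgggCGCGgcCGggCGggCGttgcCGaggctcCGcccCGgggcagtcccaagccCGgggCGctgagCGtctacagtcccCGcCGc
Itpkc: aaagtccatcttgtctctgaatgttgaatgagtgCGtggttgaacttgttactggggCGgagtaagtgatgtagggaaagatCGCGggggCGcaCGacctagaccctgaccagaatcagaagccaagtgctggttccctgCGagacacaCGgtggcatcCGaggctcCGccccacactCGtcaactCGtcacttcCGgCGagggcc

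The full windows reach from 250 bases before to 50 bases after the start. The GC content was 73.7% with 33 CpGs for Itpka and 59.3% with 22 CpGs for Itpkc, where the median of 32851 promoters was 52.7% and 7 CpGs. Windows of 9 of the 10 genes were in the table. None of them held the cyclic AMP response element TGACGTCA, the AP-1 site TGANTCA, the Egr site GCGTGGGCG or a CArG box on either strand, letters that were found in 1.79%, 7.81%, 0.612% and 1.63% of all promoters. No match says only that these letters are not in the windows.

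Itpka (chr2:119742337-119751263, plus strand), a kinase of dendritic spines that also binds actin filaments, was measured at 158, 215 and 196 CPM in SH neurons and at 101, 67.2 and 98.4 CPM in KA neurons. In glia it was at 27.1, 39.0 and 39.2 CPM in SH and at 7.39, 9.10 and 17.7 CPM in KA. Every KA library lay below every SH library of its fraction, and each KA library also lay below the SH library of the same number, at 0.312 to 0.639 of its level in neurons and 0.233 to 0.451 in glia. In glia, Itpka was downregulated with a logFC of -1.62 ± 0.37 (FDR = 0.129), 3.07-fold lower in KA, and it was the sole member called in either fraction with 4 group means. In neurons, the logFC was -1.10 ± 0.37 and was not called (FDR = 0.763). With the replicate block, Itpka was called in neurons (logFC -1.11 ± 0.26, FDR = 0.0404) and in glia (logFC -1.70 ± 0.27, FDR = 0.00142). The call in glia with 4 group means was kept in 3 of 6 fits without 1 glial library and lost without SH glia replicate 3 (FDR = 0.481), KA glia replicate 1 (FDR = 0.968) or KA glia replicate 2 (FDR = 1). It was also lost without both low-input libraries (logFC -1.71 ± 0.56, FDR = 1) and without the 4 libraries of replicate 3 (FDR = 0.298), and the block call in neurons was lost without the pair of replicate 3 (FDR = 0.599) while that in glia was kept (FDR = 0.0880).

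Itpka was a neuronal gene by its distribution, with a log2 ratio of neurons to glia of 2.43 ± 0.38 in SH (FDR = 0.000614), called in each of the 6 fits without 1 SH library. Its level in NeuN- nuclei was 17.2%, 18.1% and 20% of that in NeuN+ nuclei of the same pool in SH, and 7.32%, 13.5% and 18.0% in KA. The summed neuronal markers gave 6.75%, 19.8% and 14.6% in SH pools and 4.71%, 11% and 17.0% in KA pools. Meg3 and Snhg11 dominated this sum, with means of 9630 and 13700 CPM in SH neurons. Their log2 ratios of neurons to glia in SH were 3.30 and 3.02, above those of the other neuronal markers. The latter ran from 1.54 (Nefl) to 2.45 (Eno2). The marker sums in NeuN- libraries ranged from 1620 to 5790 CPM in SH and from 1200 to 6350 CPM in KA, none of the 15 markers was at 0, and 0 of the 15 were called in glia, where logFC was above 0 for 4 of the 15 with a median of -0.44, against 0.140 over all genes. The 7 excitatory neuron markers summed to between 182 and 832 CPM in SH glia and between 132 and 627 CPM in KA glia, with 1 of the 7, Nrgn, called as lower, 1 of the 7 above 0 and a median logFC of -0.59. Of all genes tested in glia, 0.442% were called as higher and 0.306% as lower. The part of neuronal RNA among NeuN- nuclei in the Itpka result was not tested.

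**Figure D3:**
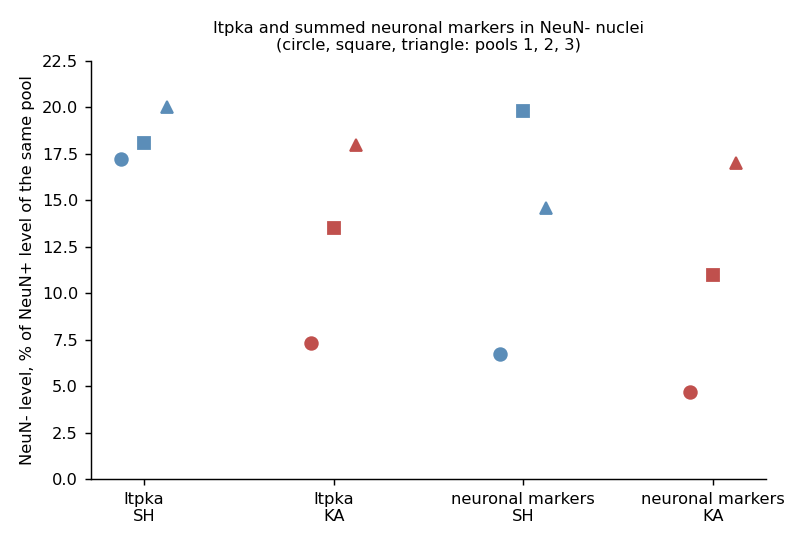
Level in NeuN- nuclei in percent of the level in NeuN+ nuclei of the same pool, for Itpka and for the sum of 15 neuronal markers, with 1 point per pool (blue SH, red KA). The Itpka values were 17.2 to 20% in SH and 7.32 to 18.0% in KA pools and overlapped, and the marker values overlapped as well. Meg3 and Snhg11 made up most of the marker sum in NeuN+ nuclei.

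The genes whose log2 CPM followed Itpka most closely over the 12 libraries, among 16030 genes of at least 4 CPM on average, were Lin7b, a scaffold protein of synapses (Pearson's r = 0.988), Panx2, a pannexin (r = 0.985), and Nrgn, the postsynaptic calmodulin-binding protein neurogranin (r = 0.985). The points share the libraries and the split into NeuN+ and NeuN-, so these values describe the libraries. Nrgn had a logFC of -1.44 ± 0.36 in glia (FDR = 0.189).

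In neurons, 2 of the 7 dentate granule cell markers were called as lower in KA, namely Calb1, a calcium buffer (logFC -1.40 ± 0.33), and Stxbp6 (logFC -1.54 ± 0.37), while Prox1, the transcription factor that defines these cells, had a logFC of 0.09 ± 0.46. Of the markers that were not called, Tdo2 had a logFC of -1.70 ± 0.54, C1ql2 -1.16 ± 0.39, Dsp -0.83 ± 0.47 and Pdzd2 1.21 ± 0.47, each without overlap between KA and SH libraries. Of all genes tested in neurons, 0.0612% were called as lower and 9.72% did not overlap. The 7 markers summed to between 700 and 965 CPM in SH neurons and between 532 and 722 CPM in KA neurons. The 4 markers of CA1 pyramidal cells summed to between 358 and 467 CPM in SH neurons and between 324 and 348 CPM in KA neurons, without overlap, and the 6 of CA3 pyramidal cells to between 286 and 434 CPM and between 311 and 479 CPM. The part of these cell types in the levels of Itpka and Itpr1 was not tested.

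Itpkc (chr7:27207172-27228661, minus strand), a broadly expressed kinase of the same family, was at 10.1, 17.5 and 30.9 CPM in SH neurons and at 40.0, 65.5 and 90.7 CPM in KA neurons. The groups did not overlap, and the KA library was 2.94 to 3.95 times the SH library of the same number. In glia it was at 7.64, 28.0 and 26.6 CPM in SH and at 30.2, 26.2 and 66.8 CPM in KA, where the groups overlapped and replicate 2 had a ratio of 0.934. The logFC in neurons, 1.75 ± 0.53, was the largest of the 10 genes but was not called (FDR = 0.597), and in glia it was 0.98 ± 0.52 (FDR = 1.00). With the replicate block, Itpkc was called in neurons (logFC 1.81 ± 0.32, FDR = 0.00478) and in glia (logFC 1.06 ± 0.33, FDR = 0.111), and neither call was made without the pair of replicate 3 (FDR = 0.306 and 0.637), nor that in glia without the pair of replicate 1 (FDR = 0.567). On the opposite strand, BC024978 overlaps 24.1% of the exon bases of Itpkc. Its logFC was 0.61 ± 0.39 in neurons and 0.90 ± 0.39 in glia, neither called, and reads within the shared bases counted for neither gene.

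Itpkb (chr1:180330485-180424802, plus strand), the kinase best known from lymphocytes, was at 12, 46.9 and 56.6 CPM in SH glia and at 44.5, 73.0 and 154 CPM in KA glia. The groups overlapped, since SH glia replicate 1, a low-input library, was the lowest and KA glia replicate 1 lay below 2 SH libraries, yet KA exceeded SH in all 3 pairs, by ratios of 3.71, 1.56 and 2.72. The logFC in glia was 1.23 ± 0.58 (FDR = 1.00) with 4 group means and 1.32 ± 0.28 with the replicate block, which called it (FDR = 0.0123) but did not without the pair of replicate 3 (FDR = 0.401). In neurons, Itpkb was at 11.4, 25.8 and 43.6 CPM in SH and at 14.1, 24.1 and 29.7 CPM in KA, with a logFC of -0.25 ± 0.57.

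Counted over the 10 genes, 0 were called in neurons and 1, Itpka, was called in glia. Of all genes tested, 0.279% passed the threshold upward and 0.0612% downward in neurons. In glia, 0.442% passed it upward and 0.306% downward. The median logFC of the 10 genes was -0.11 in neurons and -0.21 in glia, where the medians of all genes were 0.000475 and 0.140. With the replicate block, 4 of 10 were called in neurons, Itpkc and Plce1 as upregulated and Itpka and Itpr1 as downregulated, where 1.94% and 1.11% of all genes were called in these directions. In glia the block called 4 of 10, Itpkb, Itpkc and Plce1 as upregulated and Itpka as downregulated, where 3.47% and 4.17% of all genes were called. The KA and SH libraries did not overlap for 4 of 10 genes in neurons (Itpka, Itpkc, Itpr1, Plce1) and for 3 of 10 in glia (Itpka, Plce1, Plcb4), against 9.72% and 6.61% of all genes. The 10 genes were chosen with earlier results of these data known, and the paper's lists of changed genes hold Itpka, Itpkc and Plce1. Set beside the shares of all genes, these counts therefore do not test whether the set stands out.

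**Figure D4:**
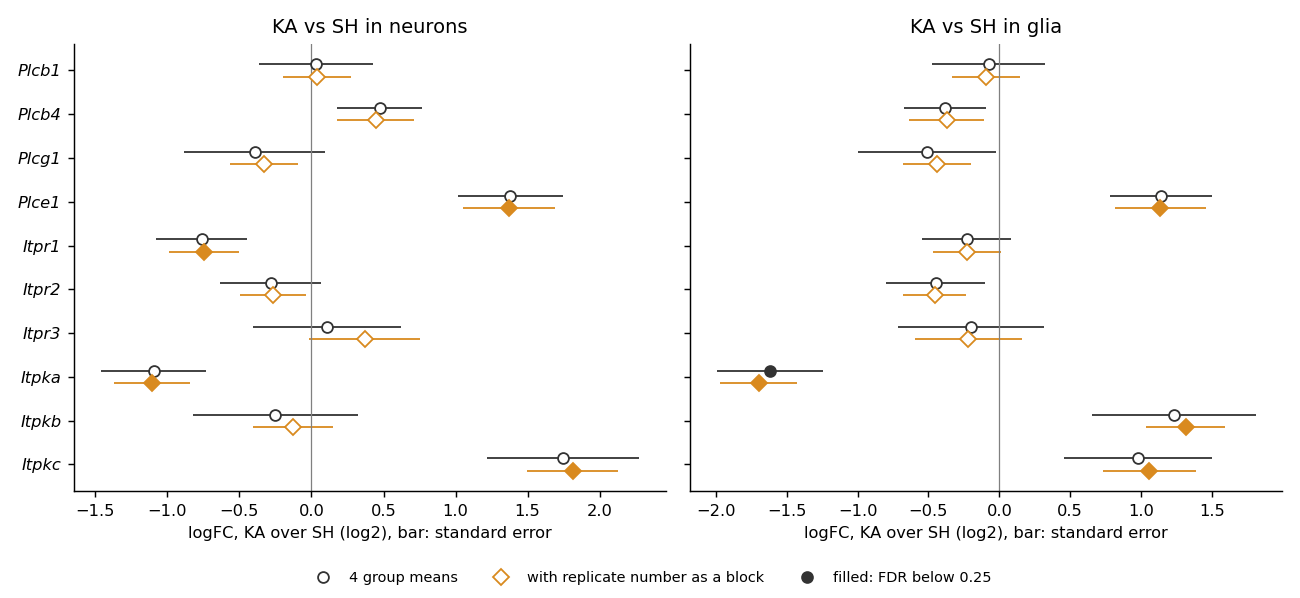
The logFC of each gene in neurons (left) and glia (right) with its standard error, from the fit of 4 group means (circles) and from the fit that also has the replicate number as block (diamonds); filled symbols have an FDR below 0.25. The estimates of both fits lie close together, and the bars of the block fit are shorter; Itpka in glia is the sole filled circle.

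Whether KA changed a gene differently in neurons and in glia was tested as the difference of the 2 logFC values. With 4 group means, 0 of the 10 genes were called, and 0% of all genes were called in either direction, where edgeR gave 502 genes with an unadjusted p below 0.05, 0 of the 10 among them, and DESeq2 called 38 genes and 0 of the 10. With the pool as a block, 1 of the 10 was called, Itpkb, whose logFC was lower in neurons than in glia by 1.44 ± 0.32 on the log2 scale (FDR = 0.161), where 0.471% of all genes were called. For Itpka, logFC in neurons minus that in glia was 0.52 ± 0.51, for Itpkc 0.77 ± 0.73, for Plce1 0.24 ± 0.50 and for Itpr1 -0.53 ± 0.45, and a difference was not shown for any of them.

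The other genes of the pathway were taken from 8 lists with 94 genes, of which 93 were in the count table and passed the filter. In neurons, 0 of the 93 were called, and in glia 1 was called as upregulated and 0 as downregulated. The median logFC was -0.11 in neurons and -0.23 in glia, where the medians of all genes were 0.000475 and 0.140. With the replicate block, 5 of the 93 were called as upregulated and 4 as downregulated in neurons, where 1.94% and 1.11% of all genes were called, and 2 and 16 in glia, where 3.47% and 4.17% of all genes were called. Without the pair of replicate 3, the block called 0 of the 93 in neurons and 2 in glia. That fit has fewer libraries, and its calls over all genes are not given here. Whether the loss of calls was particular to these genes therefore cannot be told. Of the pathway genes named below with a block call, Slc5a3 in glia kept it without that pair (FDR = 0.104), while in neurons the FDR was 1 for Isyna1, Plcd1, Dgkh, Orai3 and Stim2, and in glia it was 0.403 for Ip6k1, 0.476 for Inpp5j, 0.500 for Inpp5k, 0.518 for Dgkb, 0.560 for Stim2, 0.618 for Itpk1 and 0.678 for Plcd4. Without the pair of replicate 2, the block did not call Dgkh in neurons (FDR = 0.279), nor Itpk1 (FDR = 0.805) or Inpp5k (FDR = 0.315) in glia.

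The gene of the lists outside the 93 was Itprip, whose protein binds IP3 receptors. GENCODE M21 gives it an ID that was not matched in the count table, on the minus strand of chromosome 19 overlapping Cfap43, a gene of motile cilia. The ID that M21 gives to Cfap43 had a logFC of 1.78 ± 0.50 in neurons (FDR = 0.449; called by the block, FDR = 0.0142) and of 0.25 ± 0.49 in glia (FDR = 1.00). The counts were made with an older annotation, so that whether this ID counted reads of Itprip, of Cfap43 or of both cannot be told apart here, and it was looked at after other values had been seen. The paper, which used that annotation, lists Itprip as upregulated in neurons and does not list Cfap43.

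The gene called in glia was Slc5a3, the sodium-coupled transporter that brings myo-inositol into cells. It was at 123, 134 and 232 CPM in SH glia and at 606, 327 and 733 CPM in KA glia, so that the lowest KA library lay above the highest SH library. Its logFC was 1.77 ± 0.44 (FDR = 0.189), 3.40-fold higher in KA, and 1.75 with the replicate block (FDR = 0.000612). The call with 4 group means was made in 0 of the 6 fits without 1 glial library. In neurons, Slc5a3 was at 67.9, 91.7 and 148 CPM in SH and at 121, 112 and 177 CPM in KA, with a logFC of 0.41 ± 0.43.

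Isyna1, whose enzyme turns glucose phosphate into inositol phosphate and so starts inositol synthesis, had a logFC of -0.92 ± 0.38 in neurons (FDR = 1) and was lower in all 3 pairs, at 0.500 to 0.574 of the SH level. The block called it (FDR = 0.109). The other 15 genes of the list of phosphoinositide synthesis were not called in either fraction with 4 group means.

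Among the 13 other phospholipases C, Plcd1, a calcium-sensitive enzyme, was at 17.4, 21.2 and 29.8 CPM in SH neurons and at 26.6, 40.5 and 74.6 CPM in KA neurons. It was at 21.4, 30.8 and 36.1 CPM in SH glia and at 19.9, 11.6 and 32.4 CPM in KA glia. The logFC was 1.05 ± 0.43 in neurons and -0.47 ± 0.43 in glia, neither called with 4 group means, and the block called it in neurons (FDR = 0.157). Plcd4, of the same class, had a logFC of -1.07 ± 0.44 in glia (FDR = 0.829) and was lower in all 3 pairs, at 0.228 to 0.798 of the SH level, where the block called it (FDR = 0.123). The 4 genes of the Gq family, whose proteins activate phospholipases C beta, had 0 calls. Gnaq had a logFC of -0.27 ± 0.43 in neurons and one of -0.30 ± 0.43 in glia, and Gna11 had values of -0.26 ± 0.36 and -0.03 ± 0.36.

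The genes that act on IP3 and its products beyond the 3-kinases had 0 calls with 4 group means, over 8 other inositol phosphate kinases and 17 phosphatases. In glia, Itpk1, which phosphorylates inositol tetrakisphosphate, had a logFC of -0.74 ± 0.40, and Ip6k1, which makes inositol pyrophosphates, -0.96 ± 0.53. The smallest p values among the phosphatases were those of Inpp5j in neurons (logFC -0.79 ± 0.45) and Inpp5k in glia (logFC -0.74 ± 0.35), both inositol polyphosphate 5-phosphatases. In glia, the block called Ip6k1 (FDR = 0.0383), Inpp5j (FDR = 0.0948), Inpp5k (FDR = 0.118) and Itpk1 (FDR = 0.232), each as lower. Ip6k1 was lower in all 3 pairs, at 0.473 to 0.579 of the SH level, and Itpk1 in 2 of 3.

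On the diacylglycerol side, 0 of 12 diacylglycerol kinases and lipases and 0 of 7 protein kinases C were called with 4 group means. Dgkh, a diacylglycerol kinase, was at 390, 629 and 711 CPM in SH neurons and at 372, 248 and 275 CPM in KA neurons, with a logFC of -0.95 ± 0.43 (FDR = 1). Dgkb, another diacylglycerol kinase, had a logFC of -0.87 ± 0.34 in glia (FDR = 0.784). The block called Dgkb in glia (FDR = 0.0536) and Dgkh in neurons (FDR = 0.147). Dgkh was higher in neurons than in glia in SH, with a log2 ratio of 2.46 ± 0.45 (FDR = 0.00181).

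Of the 15 IP3 receptor partners and calcium store genes tested, 0 were called with 4 group means. Orai3, a subunit of the store-operated calcium channel, was at 36.1, 19.9 and 28.2 CPM in SH neurons and at 11.5, 12.5 and 12 CPM in KA neurons, without overlap, and its logFC was -1.22 ± 0.38 (FDR = 0.641). Stim2, a calcium sensor of the endoplasmic reticulum, was at 199, 169 and 275 CPM in SH neurons and at 144, 95.9 and 110 CPM in KA neurons. Its groups did not overlap in glia either, at 53.3, 54.5 and 93.2 CPM in SH and 31.5, 32.7 and 49.2 CPM in KA. The logFC of Stim2 was -0.88 ± 0.36 in neurons and -0.82 ± 0.36 in glia, with an FDR of 1 and 0.956, and the block called it in neurons (FDR = 0.0856) and in glia (FDR = 0.0853). Orai3 was called by the block in neurons (FDR = 0.105).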

How the data were processed

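The 12 mRNAseq libraries were analysed; RRBS data were not used here. Per the paper's methods, the authors trimmed reads with Trim Galore 0.4.3, aligned them with Rsubread to mm10, then assigned them to GENCODE M16 genes with featureCounts at its defaults, which ignores strand and leaves out reads that overlap several genes. They deposited whole-number counts per gene and library without normalization. Libraries had been sequenced on 2 platforms, and which library ran on which is not given in the sources used here. Symbols and exons came from GENCODE M21, and 105 genes without a symbol were left out.

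Genes were tested with edgeR 4.0.16 (R 4.3.3): filterByExpr (minimum count 10, minimum total 15), TMM scaling, 1 quasi-likelihood fit (legacy=TRUE) of 4 group means to all 12 libraries, and Benjamini-Hochberg adjustment over all 37598 genes. The FDR threshold was 0.25, as in the study, and 0.05 between fractions. The study fitted neurons and glia separately and over fewer genes, so the same threshold gave other calls there. Its lists hold Plce1 as upregulated in both fractions, Itpkc as upregulated in neurons and Itpka as downregulated in glia. The paper's discussion, unlike its list, describes Itpka expression in glia as elevated. Here the logFC of Itpka in glia was -1.62. SE is the size of logFC over the square root of F. Fits were run on simulated data. An earlier requirement there, on the share of changed genes that were recovered, was not met in every fit and was dropped. Power was limited, so a gene that was not called is not shown to be unchanged.

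Whether the replicate numbers of the labels pair KA with SH libraries was checked: deviations from group means correlated at 0.399, 0.264 and 0.551 in neurons and at 0.457, 0.543 and 0.764 in glia. All exceed 0.1, so a fit with a replicate block in each cell type was added, and one with a block by pool between fractions, where correlations were 0.293 to 0.649. The check did not compare libraries of different numbers. Replicate 3 had the lowest scaling factor of each group, so the correlations do not show that KA and SH libraries were paired. The study does not describe the pools of the 2 treatments as paired. In each treatment, its first sample pooled 4 mice and the others 2 each. Pools are separate mice, and precision is limited by 3 libraries per group.

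Members and lists were chosen with earlier results of these data known. Named pathway genes are those past the threshold and, per list, that with the smallest p in neurons and in glia; genes named for likeness are the 3 with the highest Pearson's r to a called member. Lists of cell type markers were written from general knowledge, and Itprip, listed with the pathway, had no matched ID. Values of 1 other pathway gene that the rule names are not reported here. Alternatives were other scalings, filters, tests (DESeq2 1.42.0, edgeR 4), separate fits, thresholds, all gene IDs, blocks and libraries left out. Leaving out all of replicate 3, and pairs under the block, was chosen after seeing the data. Figures were drawn with matplotlib 3.10.9 (Python 3.11.15).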

Additional observations from a re-analysis of the deposited data

Results flagged for a closer look

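Of the 10 members and 93 other pathway genes, the test of the difference between neurons and glia called 2 when the pool was a block. Of all genes tested, 0.471% were called in that fit. For Itpkb, the KA effect in neurons minus that in glia was -1.44 ± 0.32 on the log2 scale (FDR = 0.161), where the fit with a block within each cell type gave a logFC of -0.13 in neurons and 1.32 in glia, and KA exceeded SH in 3 of 3 glial pairs and 1 of 3 neuronal pairs. For Plcd1, the difference was 1.52 ± 0.35 (FDR = 0.173), with KA above SH in 3 of 3 neuronal pairs and below SH in 3 of 3 glial pairs. With 4 group means, neither difference was called (FDR = 1 for both). The low-input libraries are SH glia replicate 1 and KA glia replicate 2, and Itpkb was lowest of the SH glial libraries in the former, at 12 CPM, while Plcd1 was lowest of all in the latter, at 11.6 CPM; their part in these differences was not tested.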

How the results depend on the processing

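The direction of logFC held in all alternatives for Itpka, Itpkc and Plce1 in neurons and in glia, and for Itpr1 in neurons; which of them were called depended on the fit. Members called, 0 in neurons and 1 in glia, became 3 and 2 with at least 10 counts in every library, 2 and 2 with DESeq2, 3 and 0 in separate fits, and 4 and 4 with the replicate block; pathway genes called, 0 and 1, became 3 and 8, 1 and 4, 1 and 0, and 9 and 18 under these settings. Calls over all genes rose as well. They were 128 in neurons and 281 in glia in the main fit, 420 and 914 with DESeq2, and 1147 and 2871 with the replicate block. The counts of called members and pathway genes therefore moved with the number of calls over all genes in these settings. In glia, 0 members and 0 pathway genes were called with no filter, without both low-input libraries and without the 4 libraries of replicate 3, and 0 members at an FDR below 0.05. Between SH fractions, 6 members became 3 with no filter and 3 without both low-input libraries. For the difference between cell types, 0 members became 1 with the pool as a replicate block, and the blocks changed no call of a member beyond those given in the report. Leaving out 1 library gave 0 to 1 members and 0 to 1 pathway genes in glia and 3 to 5 members between fractions (3 without SH neurons replicate 3). Leaving out 1 pair under the block gave 0 to 4 members and 0 to 14 pathway genes in neurons (11 without the pair of replicate 2) and 1 to 4 members and 2 to 22 pathway genes in glia, with the lowest counts without the pair of replicate 3.

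Values that changed sign were all smaller than their standard error in the fit of 4 group means, so their direction was not resolved. In separate fits, logFC in glia was 0.031 for Itpr3 and 0.049 for Plcb1. Without the 4 libraries of replicate 3, logFC in neurons was 0.040 for Itpkb and -0.066 for Itpr3. Under the block without a pair, logFC ranged in neurons from -0.35 to 0.10 for Itpkb and from -0.035 to 0.13 for Plcb1, and in glia from -0.34 to 0.20 for Plcb1. In KA libraries, the log2 ratio of neurons to glia was 0.67 for Itpkc and 0.11 for Itpr3. This is a comparison of other libraries than the ratio in SH and not a change of processing. Without 1 library or the 4 of replicate 3, logFC in neurons ranged from -0.62 to 0.28 for Itpkb, -0.26 to 1.01 for Itpr3, -0.12 to 0.20 for Plcb1 and -0.72 to 0.13 for Plcg1, and in glia from -0.31 to 0.010 for Itpr1, -0.56 to 0.17 for Itpr3 and -0.49 to 0.16 for Plcb1. The difference between cell types ranged from -0.037 to 0.40 for Itpr2, -0.052 to 1.21 for Itpr3, -0.013 to 0.46 for Plce1, -0.13 to 0.56 for Plcb1 and -0.36 to 0.64 for Plcg1, and the ratio of SH neurons to glia from -0.81 to 0.23 for Itpkc and -1.09 to 0.17 for Itpr3. The causes were not tested. RLE scaling shifted the median of all genes by -0.147 between fractions and took the call from Plcb1 (FDR = 0.0768). With 3 libraries per group and a common biological coefficient of variation of 0.674, differences of low genes such as Itpr3 were not resolved.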
